A study of Mus musculus with 3 samples.

Results

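The collagen chain genes of the mouse genome were described in RNA-seq of 3 cell lines from mouse pancreatic tumours, with 1 library for each line. Members were taken by symbol, as every gene named Col, a number, a and a number, which gave 44 of the 22757 named genes of the deposited table. They were chosen with earlier results of these data known. The lines make up the HI-Panc progression model: a localized line (HI-Panc-L), an invasive line (HI-Panc-I) and a metastatic line (HI-Panc-M). All 3 came from tumours of transgenic mice labelled p16-/-, so no line without that deletion is compared here, and the labels do not say how many tumours or clones each line stands for. By tissue label, the localized line is from body wall, the invasive line from pancreatic tissue and the metastatic line from liver; body wall and pancreas stand the other way round from what the stage names would lead one to expect. Libraries were grouped by the stage label. If those 2 lines had been exchanged, every direction between them would turn round, and the falling order over the stages given below would not hold. Culture medium was DMEM with 10% serum; the treatment text, shared by all 3, mentions 100 ng/ml of cobalt chloride for 24 h in hypoxic models without saying whether these cultures received it. With 1 library per line there is no replicate error, so no difference was tested and every comparison is between these libraries.

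Collagens are secreted proteins in which 3 chains wind into a triple helix, and the type of a collagen is set by which chains combine. Fibrillar collagens, such as types I, III and V, form the tensile fibrils of connective tissue and of the dense stroma of pancreatic tumours. Basement membrane collagens, chiefly type IV, form the sheet under epithelia. In tumours, fibrillar chains are made mainly by fibroblasts and stellate cells, while epithelial cells also make basement membrane chains.

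Collagen transcripts were less abundant and of different composition in the invasive and metastatic libraries than in the localized library. Levels are FPKM, fragments scaled to transcript length and to the mapped fragments of the library, which allows chains of different length to be set side by side. The 44 chains summed to 989 FPKM in localized, 529.6 in invasive and 377 in metastatic cells. Fibrillar chains made up 49.9% of the sum in localized, 20.8% in invasive and 5.68% in metastatic cells, and basement membrane chains made up 21.0%, 71.5% and 87.1% in the same order of stages. Most of the basement membrane share in the later stages was a single gene, Col18a1, at 3.38% of the collagen sum in localized, 36.9% in invasive and 55.8% in metastatic cells. Without Col18a1 the order of the shares was kept, with basement membrane chains at 18.2%, 54.8% and 70.8% and fibrillar chains at 51.7%, 33.0% and 12.8% of what was left in localized, invasive and metastatic cells. In absolute terms the 8 other basement membrane chains summed to 174 FPKM in localized, 183 in invasive and 118 in metastatic cells, against 494 FPKM in localized, 110.4 in invasive and 21.4 in metastatic cells for the 11 fibrillar chains. Type VI chains summed to 199 FPKM in localized, 24.3 in invasive and 9.98 in metastatic cells. The sums are of transcripts and say nothing of the amount of protein.

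**Figure D1:**
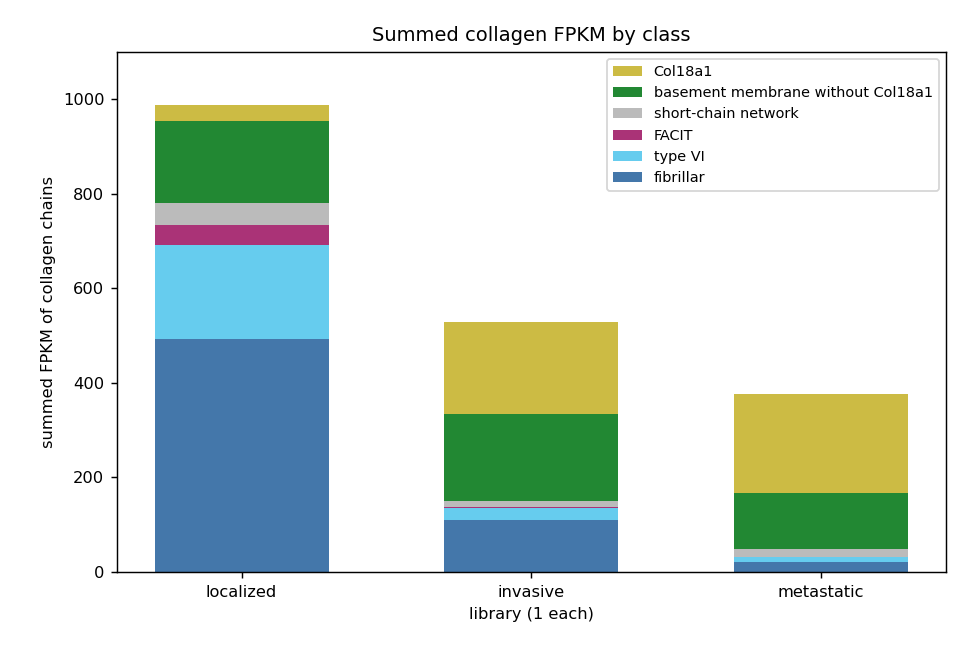
Summed FPKM of collagen chains (vertical axis) in the 1 library of each stage (horizontal axis), stacked by collagen class with Col18a1 drawn apart from the other basement membrane chains; transmembrane and other chains, under 1 FPKM in sum, are not drawn. The whole bar measures 989 FPKM in localized, 529.6 in invasive and 377 in metastatic cells, and the fibrillar part shrinks while the Col18a1 part is larger in the later stages.

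A chain entered the counts of differences if its mean over the libraries was 1 FPKM or more, which 18 of the 44 chains reached. It counted as higher or lower when it differed by at least 1 in log2(FPKM + 1), which is 2-fold in FPKM + 1. Differences called within or past 2-fold are on that scale, and for low genes the ratio of FPKM can be larger. Of the 18, 12 had at least 1 FPKM in every library. The other 6 (Col1a2, Col4a6, Col5a2, Col6a3, Col16a1 and Col27a1) were under 1 FPKM in at least 1 library and passed because they were high elsewhere, so for them a difference was built in by the filter, and the counts and medians here are a description only. In the invasive against the localized library 12 of the 18 chains were lower, where 6.07% of all 11404 genes past the filter were, and 2 were higher, where 8.78% of all genes were. The median difference of the 18 was -2.08, beside -0.0014 for all genes. In the metastatic against the localized library 12 were lower and 1 higher (backgrounds 7.29% and 9.08%), with a median of -3.42 beside 0.0041 for all genes. In the metastatic against the invasive library 8 were lower and 0 higher (backgrounds 1.67% and 1.33%), with a median of -0.88 beside -0.0086. By class, 4 of 6 fibrillar, 3 of 7 basement membrane and 3 of 3 type VI chains past the filter were lower in each of the later libraries than in the localized library. The first and second of these comparisons share the localized library and are not independent. Ordered by stage, 8 chains were lower by at least 1.5-fold at both steps (background 1.54%) and 0 were higher at both (background 1.47%); the 8 were Col1a1, Col1a2, Col4a5, Col5a2, Col6a1, Col6a3, Col15a1 and Col16a1.

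**Figure D2:**
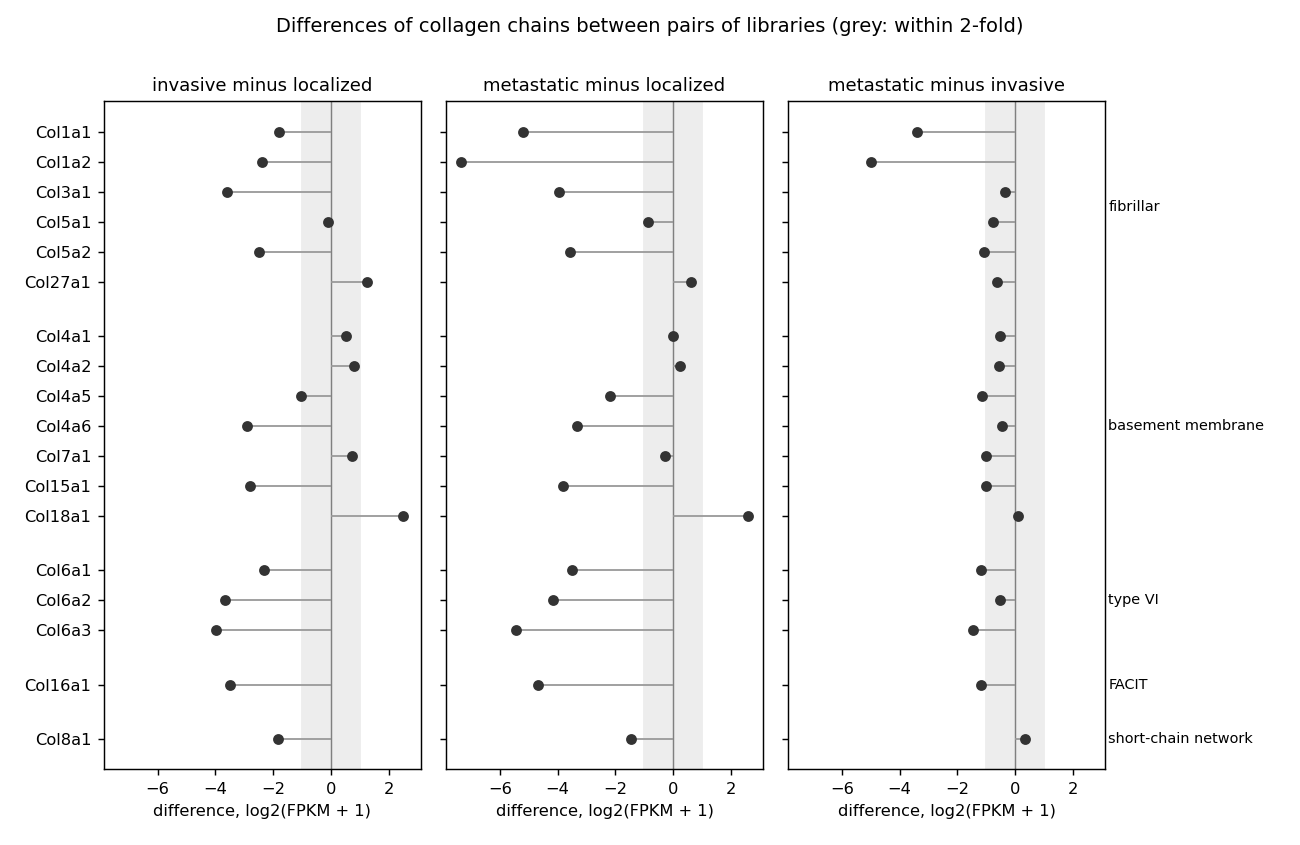
Difference in log2(FPKM + 1) (horizontal axes) of each of the 18 chains past the filter (rows, grouped by class) for invasive minus localized, metastatic minus localized and metastatic minus invasive. The grey band holds differences within 1 on this scale, and each point is 1 pair of libraries. Inside the band the ratio of FPKM can be over 2-fold for low chains, as for Col4a6 in the third panel (51.7-fold). In the first and second panels 12 chains lie left of the band, Col18a1 lies right of it in both and Col27a1 in the first.

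Other cell types and quality give the setting for these values. The libraries held an estimated 45300000, 41000000 and 43300000 fragments in the order localized, invasive, metastatic, and 11112 to 11219 genes reached 1 FPKM. Of 6 epithelial markers, 4 reached 1 FPKM in the localized library and 6 in each of the others, with Krt8 at 765 FPKM in localized, 2356 in invasive and 2247 in metastatic cells and Epcam at 0.209 FPKM in localized, 1.31 in invasive and 2.63 in metastatic cells. Against the localized library, 5 of the 6 were past 2-fold higher in the invasive library and 6 of 6 in the metastatic one, where 8.78% and 9.08% of all genes were. Their sum was 1195 FPKM in localized, 6279 in invasive and 6786 in metastatic cells. Fibroblast markers went the other way. All 4 of the 7 that passed the filter (Pdgfra, Pdgfrb, Dcn, Prrx1) were lower in both, where 6.07% (invasive) and 7.29% (metastatic) of all genes were. The 7 summed to 193 FPKM in localized, 6.40 in invasive and 4.998 in metastatic cells, with Fap, Lum and Thy1 listed at 0 in the metastatic library. Fap was near 0 in the other libraries too, at 0.0433 FPKM in localized and 0.0384 in invasive cells. Of the markers counted, Epcam, Krt7, Pdgfrb and Dcn were under 1 FPKM in at least 1 library, so for them a difference was built in by the filter. The localized line thus held both keratins and fibroblast markers, with Prrx1 at 83.7 FPKM and Pdgfra at 42.7 FPKM. The smooth muscle and pericyte list summed to 50.3 FPKM in localized, 5.91 in invasive and 0.559 in metastatic cells. Endothelial, hepatocyte, skeletal muscle and acinar markers each summed to under 1 FPKM in every library, and of the leukocyte list only Cd68 reached 1 FPKM while Cd3e and Emr1 were listed at 0. The part of these marker differences in the collagen differences was not tested, and in bulk libraries fewer cells of a type and less RNA per cell cannot be told apart.

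Sequence from the 250 bases before the RefSeq start is shown for 5 chains on which the description turns: 4 that were lowest in the metastatic library and Col18a1, which was highest there. Windows run 5′ to 3′ on the strand of the gene, were taken from the RefSeq promoter table of GRCm38.p6 and trimmed to the longest stretch outside annotated GENCODE exons. The stretch shown for Col1a2 therefore ends 125 bases before its RefSeq start and lies inside the longer GENCODE gene span given below, and that for Col18a1 ends 18 bases before its RefSeq start. Capitals mark TATAAA (the letters of a TATA box), CCAAT (the CCAAT box) and GGGCGG (a GC box) on either strand. They lie at chr6:4505370-4505492 (Col1a2, plus strand), chr1:45311288-45311537 (Col3a1, plus strand), chr1:90843972-90844221 (Col6a3, minus strand), chrX:141474077-141474326 (Col4a6, minus strand) and chr10:77166549-77166780 (Col18a1, minus strand).
Col1a2: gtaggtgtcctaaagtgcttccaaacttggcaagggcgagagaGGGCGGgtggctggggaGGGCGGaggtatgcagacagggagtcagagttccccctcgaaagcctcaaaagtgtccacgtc
Col3a1: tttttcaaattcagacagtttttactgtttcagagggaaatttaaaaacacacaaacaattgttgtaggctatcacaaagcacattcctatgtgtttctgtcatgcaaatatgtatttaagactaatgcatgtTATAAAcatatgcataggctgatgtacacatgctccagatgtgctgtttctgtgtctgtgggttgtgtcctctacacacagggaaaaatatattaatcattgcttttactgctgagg
Col6a3: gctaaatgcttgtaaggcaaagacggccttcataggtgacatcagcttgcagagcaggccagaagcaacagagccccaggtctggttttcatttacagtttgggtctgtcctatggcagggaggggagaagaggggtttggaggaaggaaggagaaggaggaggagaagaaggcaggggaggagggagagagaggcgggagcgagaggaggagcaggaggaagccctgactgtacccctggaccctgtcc
Col4a6: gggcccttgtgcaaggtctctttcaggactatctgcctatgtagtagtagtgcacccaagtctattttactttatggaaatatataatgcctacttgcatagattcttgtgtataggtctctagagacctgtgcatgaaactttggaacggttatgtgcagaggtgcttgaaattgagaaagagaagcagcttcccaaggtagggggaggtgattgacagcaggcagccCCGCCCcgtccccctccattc
Col18a1: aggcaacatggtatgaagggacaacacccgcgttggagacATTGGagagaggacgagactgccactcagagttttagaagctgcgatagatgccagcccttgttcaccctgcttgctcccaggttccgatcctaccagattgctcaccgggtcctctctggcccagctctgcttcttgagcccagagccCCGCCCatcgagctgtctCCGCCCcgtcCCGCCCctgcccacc
Col3a1 shows TATAAA near the middle of its window, not close to the start, and no GC box. Col1a2 carries 2 GC boxes in the stretch shown, Col4a6 carries 1 and Col6a3 holds none of these letters. Col18a1 carries 3 GC boxes and 1 CCAAT box, all of them on the opposite strand. A second listed start of Col18a1 (77113705) is not shown, as its longest stretch outside exons was 9 bases. Of the 44 genes, 35 had an entry in the promoter table, with 38 windows. Across untrimmed windows of 250 bases, TATAAA in either orientation was in 13.2% of collagen windows and in 12.4% of all 32851 windows. CCAAT was in 34.2% of collagen and 33.8% of all windows, and GGGCGG in 57.9% and 32.7%. A base can belong to more than 1 match, since CCGCCC ends and CCAAT begins with the same letters. Among the 16 genes past the filter with a window, 1 had TATAAA, 7 had CCAAT and 11 had GGGCGG. These matches are a description of letters and not of bound sites.

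Type I collagen, the main fibrillar collagen of skin, bone and tumour stroma, is normally a trimer of paired α1 chains (Col1a1) with a single α2 chain (Col1a2), and both genes were lowest in the metastatic library. Col1a1 (ENSMUSG00000001506.10, GRCm38 chromosome 11, 94936224 to 94953042, plus strand) had 162 FPKM in localized, 46.3 in invasive and 3.45 in metastatic cells. It was 3.49-fold lower in the invasive than in the localized library (95% counting interval 3.42 to 3.56) and 46.9-fold lower in the metastatic than in the localized library (43.8 to 50.2). Col1a2 (ENSMUSG00000029661.16, chromosome 6, 4504814 to 4541544, plus strand) had 177 FPKM in localized, 33.4 in invasive and 0.0833 in metastatic cells. The metastatic value stands for about 19 fragments, against about 7073 in the invasive library, a 401-fold difference (252 to 653). These intervals come from fragment numbers estimated from the table and cover counting error only. Both chains were thus sharply ordered by stage, but not in step: the ratio of Col1a1 to Col1a2 was 0.913 (0.90 to 0.925) in the localized, 1.39 (1.35 to 1.43) in the invasive and 41.4 (26.3 to 69.1) in the metastatic library. Together the type I chains made up 34.3% of the collagen sum in localized, 15.1% in invasive and 0.937% in metastatic cells.

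**Figure D3:**
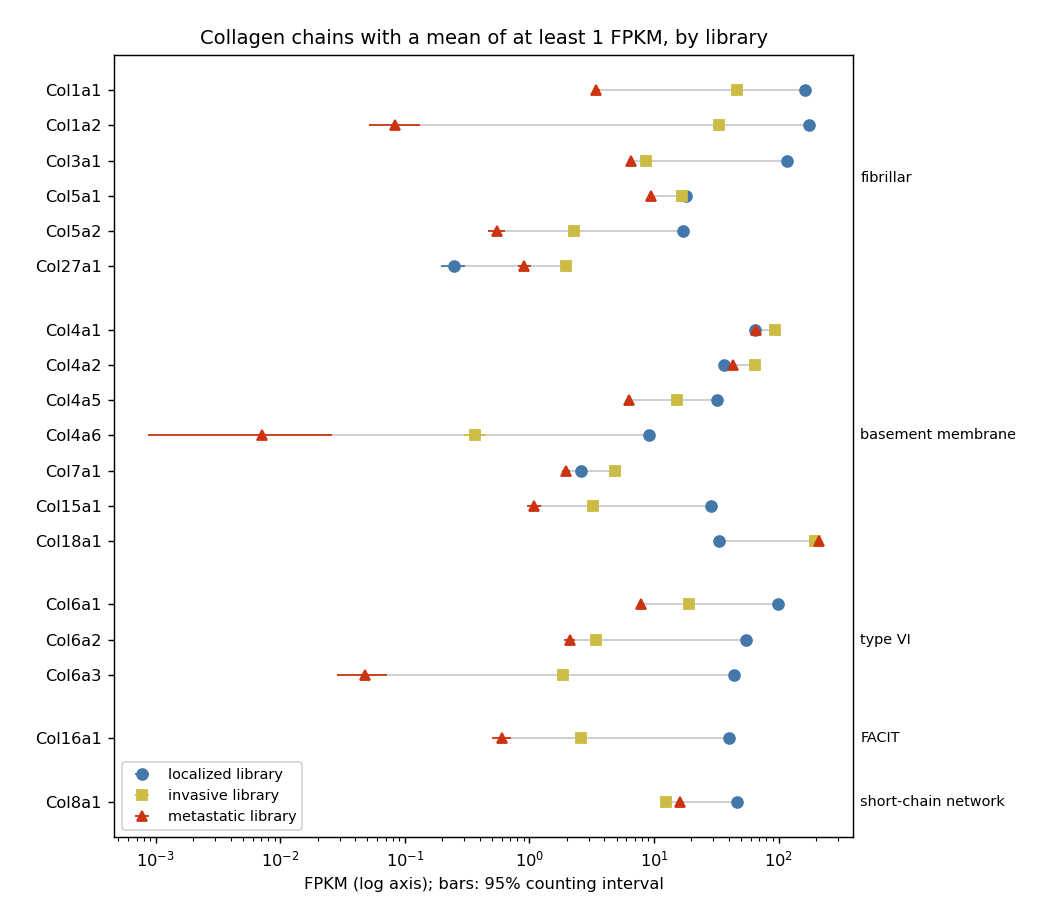
FPKM (horizontal log axis) of the 18 chains past the filter (rows, grouped by class) in the localized (circle), invasive (square) and metastatic (triangle) libraries, with 95% counting intervals as bars where they are wider than the symbol. The circle lies rightmost for 13 of the 18 chains. For Col4a1, Col4a2, Col18a1 and Col27a1 it lies leftmost, and for Col7a1 in the middle. For Col4a1 the localized and metastatic values are level within counting error (metastatic over localized 1.004, 0.984 to 1.025).

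Col3a1, whose homotrimers form the fine fibrils of type III collagen (chromosome 1, 45311538 to 45349706, plus strand), had 117 FPKM in localized, 8.67 in invasive and 6.57 in metastatic cells. Unlike type I, nearly all of its difference lay between the localized library and the other libraries: it was 13.5-fold lower in the invasive than in the localized (12.9 to 14.2) and 1.32-fold lower in the metastatic than in the invasive library (1.23 to 1.41). Type V collagen regulates the diameter of type I fibrils, and its chains differed from each other. Col5a1 had 18.01 FPKM in localized, 16.8 in invasive and 9.46 in metastatic cells and stayed within 2-fold between any pair. Col5a2 had 17.2 FPKM in localized, 2.28 in invasive and 0.546 in metastatic cells, 7.55-fold lower in the invasive (6.93 to 8.23) and 31.5-fold lower in the metastatic than in the localized library (26.9 to 37.4). The ratio of Col5a1 to Col5a2 was 1.05 in localized, 7.36 in invasive and 17.3 in metastatic cells. The minor chain Col5a3 fell under the filter, with 0.977 FPKM in localized, 0.792 in invasive and 0.296 in metastatic cells. Col5a2 lies tail to tail with Col3a1, 24614 bases apart, and the level of Col3a1 relative to Col5a2 was 6.80 in localized, 3.80 in invasive and 12.03 in metastatic cells.

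Col27a1, a fibrillar chain known from cartilage (chromosome 4, 63214004 to 63334991, plus strand), was the only fibrillar chain past the filter that was lowest in the localized library. It had 0.246 FPKM in localized, 1.96 in invasive and 0.912 in metastatic cells. That made it 7.97-fold higher in the invasive (6.32 to 10.1) and 3.71-fold higher in the metastatic than in the localized library (2.90 to 4.79), although only the first of these counted as 2-fold in log2(FPKM + 1), with 1.25 and 0.62. It was also the chain nearest the filter, with a mean of 1.04 FPKM, while Col5a3 lay just outside with 0.688. Col11a1, a partner of type V in fibrils, reached 1.17 FPKM in the localized library (about 396 fragments) and had about 15 fragments in invasive and 1 in metastatic cells; its mean of 0.406 FPKM kept it under the filter. The cartilage chain Col2a1 and Col24a1 stayed under 0.1 FPKM in every library.

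Among basement membrane collagens the major type IV pair was within 2-fold in every comparison. Col4a1 and Col4a2, which form the common α1α1α2 network, lie head to head on chromosome 8 with first exons that overlap by 22 bases. Col4a1 (11198423 to 11312826, minus strand) had 65.1 FPKM in localized, 94.3 in invasive and 65.4 in metastatic cells. Col4a2 (11312805 to 11449287, plus strand) had 36.5 FPKM in localized, 64.8 in invasive and 43.2 in metastatic cells. Both were highest in the invasive library, by 1.45-fold (1.42 to 1.48) and 1.78-fold (1.73 to 1.82) over the localized library, and their ratio stayed between 1.45 and 1.78. The sources used here do not say whether counting used strand; exon bases shared with other genes made up 0.295% of those of Col4a1 and 0.982% of those of Col4a2.

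The second head-to-head pair, on chromosome X, did not share this pattern. Col4a5 (141475385 to 141689234, plus strand), a chain of the kidney and skin basement membrane networks, had 32.3 FPKM in localized, 15.4 in invasive and 6.33 in metastatic cells. Col4a6 (141165403 to 141474076, minus strand), its partner in the α5α5α6 network, had 9.18 FPKM in localized, 0.367 in invasive and 0.0071 in metastatic cells, the last of which stands for about 2 fragments. Relative to the localized library Col4a6 was 25.0-fold lower in the invasive (20.5 to 31.1) and 1292-fold lower in the metastatic library (356 to 10621), where Col4a5 was 2.09-fold (2.02 to 2.17) and 5.10-fold lower (4.85 to 5.37). Both genes followed the stage order, with Col4a6 showing the wider spread, and their annotated starts lie 1308 bases apart. Between the metastatic and invasive libraries the difference of Col4a6 in log2(FPKM + 1) was only -0.44, because both values lie under 1 FPKM, although the ratio was 51.7-fold (13.8 to 429). The third pair, Col4a3 and Col4a4 on chromosome 1, encodes chains of the mature glomerular network and was near the detection limit, with about 3, 7 and 9 fragments for Col4a3 and 1, 16 and 8 for Col4a4 over the stages.

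**Figure D4:**
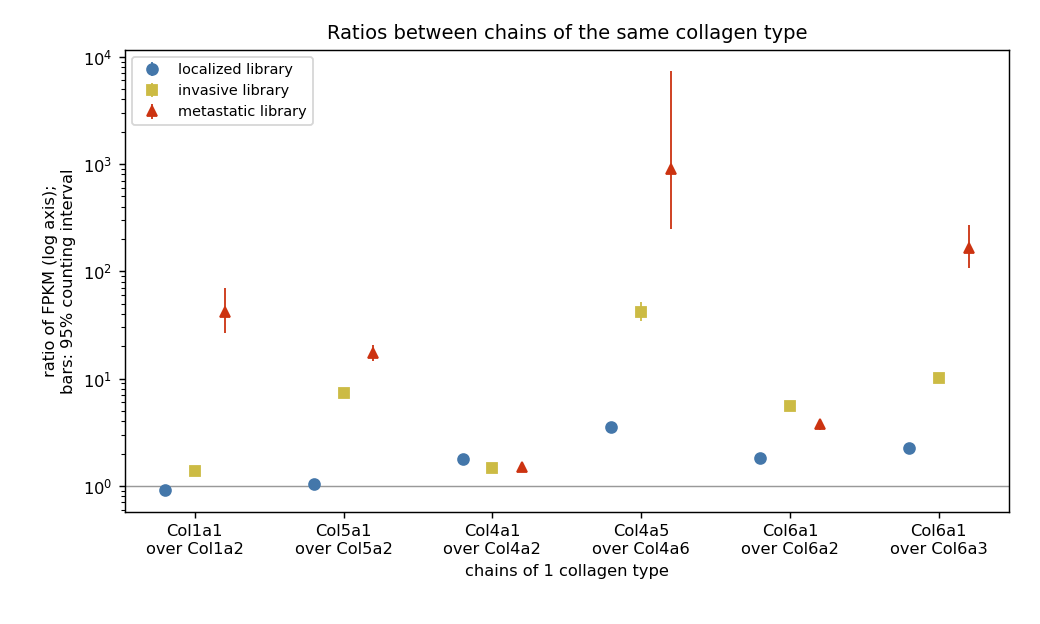
Ratio of FPKM between chains of 1 collagen type (vertical log axis) in the localized (circle), invasive (square) and metastatic (triangle) libraries, with 95% counting intervals as bars. The Col4a1 to Col4a2 ratio lies between 1.45 and 1.78 in all 3 libraries, while the Col1a1 to Col1a2 ratio is 0.913 in localized, 1.39 in invasive and 41.4 in metastatic cells and the Col4a5 to Col4a6 ratio is 3.52, 42.0 and 891.

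The multiplexins, collagens of the basement membrane zone whose carboxyl ends can be cleaved to anti-angiogenic fragments, went in opposite directions. Col18a1, the source of endostatin (ENSMUSG00000001435.15, chromosome 10, 77052178 to 77166548, minus strand), had 33.5 FPKM in localized, 195 in invasive and 210.3 in metastatic cells. It was 5.84-fold higher in the invasive (5.70 to 5.98) and 6.29-fold higher in the metastatic than in the localized library (6.14 to 6.44), and was the most abundant collagen gene in both. Among all genes it ranked 423rd in the invasive and 375th in the metastatic library. The table gives 1 value per gene, so transcripts from its separate promoters cannot be told apart. Col15a1 (chromosome 4, 47208161 to 47313167, plus strand) had 28.7 FPKM in localized, 3.22 in invasive and 1.10 in metastatic cells, 8.90-fold lower in the invasive (8.21 to 9.66) and 26.2-fold lower in the metastatic than in the localized library (23.0 to 29.9). The ratio of Col18a1 to Col15a1 was therefore 1.17 in localized, 60.7 in invasive and 192 in metastatic cells. Col7a1, which forms the anchoring fibrils of stratified epithelia (chromosome 9, 108953586 to 108984875, plus strand), had 2.57 FPKM in localized, 4.90 in invasive and 1.97 in metastatic cells. Its largest difference, 2.49-fold lower in the metastatic than in the invasive library (2.29 to 2.71), came to -0.99 in log2(FPKM + 1) and was not counted.

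Type VI collagen forms beaded filaments around cells from an α1, an α2 and a further chain, most often α3, and its 3 main chains were lower in both later-stage libraries. Col6a1 (chromosome 10, 76708792 to 76726168, minus strand) had 99.8 FPKM in localized, 19.0 in invasive and 7.83 in metastatic cells. Col6a2, 85161 bases away on the same strand, had 54.8 FPKM in localized, 3.43 in invasive and 2.10 in metastatic cells. Col6a3 (chromosome 1, 90765923 to 90843971, minus strand) had 44.0 FPKM in localized, 1.87 in invasive and 0.0474 in metastatic cells, the last standing for about 20 fragments. Relative to the localized library the α1, α2 and α3 genes were 5.25-fold, 16.0-fold and 23.6-fold lower in the invasive library. In the metastatic library Col6a3 was 927-fold lower than in the localized library (612 to 1548), while Col6a1 was 12.7-fold (12.05 to 13.5) and Col6a2 26.1-fold lower (23.7 to 28.9). The Col6a1 to Col6a3 ratio was 2.27 (2.22 to 2.31) in localized, 10.2 (9.39 to 11.03) in invasive and 165 (106 to 271) in metastatic cells. The chains that can take the place of α3, encoded by Col6a4, Col6a5 and Col6a6, had at most 3 fragments in any library.

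Of the 9 fibril-associated chains (FACIT and related), which bind to the surface of fibrils, only Col16a1 passed the filter. Col16a1 (chromosome 4, 130047840 to 130099283, plus strand) had 40.1 FPKM in localized, 2.61 in invasive and 0.599 in metastatic cells, and was 15.3-fold lower in the invasive (14.1 to 16.8) and 66.9-fold lower in the metastatic than in the localized library (56.4 to 80.4). Col12a1, a long chain found on type I fibrils, lay under the filter with 0.752 FPKM in localized, 0.227 in invasive and 0.0199 in metastatic cells, in the same order. Col9a3, a chain of cartilage type IX collagen, had 0.467 FPKM in localized, 0.745 in invasive and 0.0862 in metastatic cells and was highest in the invasive library. The short-chain collagen Col8a1 (chromosome 16, 57624258 to 57754737, minus strand), known from vessel walls and the corneal basement membrane, had 46.6 FPKM in localized, 12.5 in invasive and 16.3 in metastatic cells. It was 3.73-fold lower in the invasive (3.58 to 3.90) and 2.86-fold lower in the metastatic than in the localized library (2.75 to 2.97), and with Col18a1 it was 1 of 2 chains past the filter with a higher value in the metastatic than in the invasive library, 1.31-fold for Col8a1 (1.24 to 1.38). Its partner Col8a2 had about 22 fragments in the localized library and was listed at 0 in the other libraries.

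The remaining chains had low values, though some were well counted, with about 396 fragments for Col11a1 and 386 for Col12a1 in the localized library. In all, 26 chains lay under the filter, with means between 0 and 0.688 FPKM, and 11 of them had fewer than 10 fragments in every library. Only Col13a1 was listed at 0 in all 3 libraries. The highest value fell in the localized library for 15 of the 26, in the invasive for 6 and in the metastatic for 4. This count has no all-gene share beside it, so no lean to a library is read from it. For Col6a4, Col6a5, Col6a6, Col9a1, Col19a1, Col25a1 and Col26a1 the highest value stood for at most 3 fragments. No transmembrane collagen (Col13a1, Col17a1, Col23a1, Col25a1) passed, and the hemidesmosome chain Col17a1 had about 43 fragments in localized, 7 in invasive and 6 in metastatic cells.

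Collagen chains are hydroxylated, glycosylated and folded in the endoplasmic reticulum before secretion, and most genes of these steps were within 2-fold. Of 18 modification and folding genes past the filter (20 listed), 2 were higher and 3 lower in the invasive than in the localized library, and 2 were higher and 4 lower in the metastatic than in the localized library, with medians of -0.32 and -0.35. Of all genes, 8.78% were higher and 6.07% lower in the invasive, and 9.08% higher and 7.29% lower in the metastatic, than in the localized library, with medians near 0. Serpinh1 (HSP47), the chaperone specific to procollagen, had 389 FPKM in localized, 110.7 in invasive and 91.2 in metastatic cells. Fkbp10, a prolyl isomerase that acts on procollagen, had 59.3 FPKM in localized, 5.03 in invasive and 6.13 in metastatic cells, and the prolyl 4-hydroxylase subunit P4ha3 had 19.0 FPKM in localized, 0.889 in invasive and 0.20 in metastatic cells. The more abundant hydroxylase subunits were within 2-fold, with P4ha1 at 61.8 FPKM in localized, 54.8 in invasive and 56.1 in metastatic cells and P4ha2 at 46.9 FPKM in localized, 63.0 in invasive and 75.3 in metastatic cells. Higher in both later stages were the collagen galactosyltransferase Glt25d1 (now Colgalt1), at 61.2 FPKM in localized, 141 in invasive and 130 in metastatic cells, and the transcription factor Creb3l1, known to activate type I collagen genes in osteoblasts, at 13.4 FPKM in localized, 75.8 in invasive and 42.1 in metastatic cells. The fourth lower gene in the metastatic library was Leprel2 (now P3h3), at 13.8 FPKM in localized, 7.04 in invasive and 4.04 in metastatic cells. Of the lower genes, P4ha3 was under 1 FPKM in both later stages, so for it a difference was built in by the filter.

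**Figure D5:**
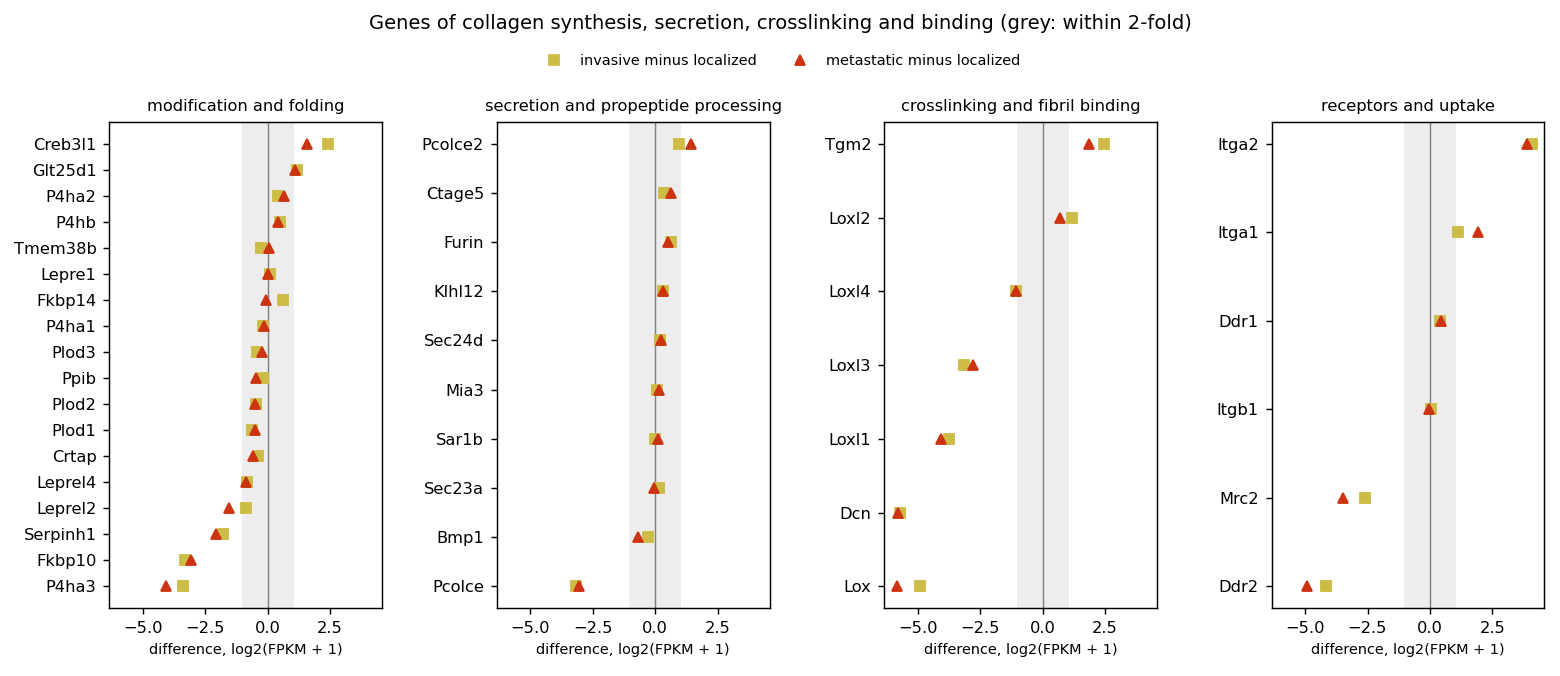
Difference in log2(FPKM + 1) (horizontal axes) against the localized library for the invasive (square) and metastatic (triangle) libraries; rows are genes past the filter on lists of collagen modification and folding, secretion and propeptide processing, crosslinking and fibril binding, and receptors and uptake. Most genes of the first and second lists lie in the grey band of differences within 1 on this scale, while Lox, Dcn, Ddr2, P4ha3 and Pcolce lie far left and Itga2 far right.

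Of the secretion and propeptide processing genes, 1 of 10 was lower in each later-stage library and 0 (invasive) or 1 (metastatic) higher than in the localized library, near the all-gene shares of 6.07% and 7.29% lower and 8.78% and 9.08% higher in invasive and metastatic cells. Among these 10 genes past the filter (15 listed), Pcolce, which enhances cleavage of fibrillar procollagen, had 414 FPKM in localized, 44.95 in invasive and 49.5 in metastatic cells. Its homologue Pcolce2 went the other way, with 7.33 FPKM in localized, 15.4 in invasive and 21.3 in metastatic cells, and was the 1 higher gene, in the metastatic against the localized library. The list medians were 0.17 and 0.19 for invasive and metastatic against localized; the procollagen protease Bmp1 had 20.6 FPKM in localized, 16.9 in invasive and 12.3 in metastatic cells and the cargo receptor Mia3 (TANGO1) had 22.3 FPKM in localized, 23.7 in invasive and 24.9 in metastatic cells. Of 7 crosslinking and fibril-binding genes past the filter, 5 were lower in each later-stage library than in the localized library. In the same comparisons 2 (invasive) or 1 (metastatic) were higher, with the same all-gene shares as background. Among the 5, Lox and Dcn were under 1 FPKM in at least 1 library, so for them a difference was built in by the filter. The others, Loxl1, Loxl3 and Loxl4, had at least 1 FPKM in every library. Of the lysyl oxidases, which crosslink collagen and elastin, Lox had 74.0 FPKM in localized, 1.49 in invasive and 0.305 in metastatic cells, Loxl1 had 38.4 FPKM in localized, 1.94 in invasive and 1.39 in metastatic cells and Loxl3 had 22.3 FPKM in localized, 1.64 in invasive and 2.37 in metastatic cells. The fibril-binding proteoglycan Dcn, also on the fibroblast list, had 54.4 FPKM in localized, 0.071 in invasive and 0.0142 in metastatic cells. The transglutaminase Tgm2 was higher in both later stages, with 26.0 FPKM in localized, 148 in invasive and 98.1 in metastatic cells, and Loxl2, which acts on basement membrane type IV collagen, had 20.4 FPKM in localized, 47.3 in invasive and 33.8 in metastatic cells. The collagen receptors also divided. Of these, Ddr2, Mrc2 and Itga1 were under 1 FPKM in at least 1 library, so for them a difference was built in by the filter. The fibrillar collagen receptor kinase Ddr2 had 35.0 FPKM in localized, 1.02 in invasive and 0.184 in metastatic cells and the collagen uptake receptor Mrc2 had 10.7 FPKM in localized, 0.931 in invasive and 0.0572 in metastatic cells. Itga2, the integrin subunit of the main epithelial collagen receptor, had 2.84 FPKM in localized, 64.1 in invasive and 56.3 in metastatic cells, and Itga1, whose integrin prefers type IV collagen, had 0.279 FPKM in localized, 1.80 in invasive and 3.83 in metastatic cells. The kinase Ddr1 (29.1 FPKM in localized, 38.5 in invasive and 39.7 in metastatic cells) and the common β1 subunit Itgb1 (199 FPKM in localized, 206 in invasive and 194 in metastatic cells) were within 2-fold. Between the metastatic and invasive libraries 0 genes of these 4 lists differed by 1 or more in log2(FPKM + 1), where 1.33% of all genes were higher and 1.67% lower; that scale understates the ratios of low genes, among them Mrc2, Ddr2, Lox, P4ha3 and Itga1.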

How the data were processed

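The deposited table held FPKM per gene for 3 libraries; Cufflinks 2.2.1, STAR 2.5.2a, FastQC 0.11.2 and the build GRCm38 are listed, with no roles, per the submitters' processing notes. The authors deposited FPKM whose lowest value was exactly 0.1 in each column, so 0.1 was subtracted from every value. Of 22784 entries, 27 with a date number for a symbol were left out, and 18 short or ribosomal RNA genes were left out of the counts. Differences are in log2(FPKM + 1), which understates folds of low genes; ratios are of FPKM. Fragment numbers were estimated from whole-fragment steps in genes with 1 GENCODE M21 transcript, where 80.7% to 81.3% of values lay within 0.1 of a whole number at an effective length 180 bases under the transcript length (20% if evenly spread). For chains with several transcripts the longest coding one was used, so fragment numbers are approximate: of 46 chain values between 0.3 and 20 fragments, 54.3% lay within 0.1 of a whole number. Intervals are 95% exact Poisson or binomial. The members, chain classes and gene lists were chosen with earlier results of these data known. All chains past the filter, and list members past 2-fold, were named by rule (at most 6 per list); genes within 2-fold, chains under the filter and Col18a1 ranks are given for description. Alternatives were other pseudocounts, filters, scaling, a 1.5-fold limit and no subtraction. The call rule was run on simulated libraries with known changes and counting noise only. That run checks the rule and says nothing of differences between the lines. Python 3.11.15, pandas 2.3.3, numpy 2.4.6 and scipy 1.17.1 were used. 1 allele of the genotype label is not reported here.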

Additional observations from a re-analysis of the deposited data

How the results depend on the processing

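No paired analysis was possible because each stage has 1 library, and no library could be left out. Of the 54 differences of single chains, none changed sign while past 2-fold under any alternative run. That outcome was fixed in advance and is no support for the differences. Another pseudocount, filter or fold limit, or no subtraction, cannot turn a sign round, and the scaling factors were too near 1 to do so. With a pseudocount of 0.1 FPKM, 2 chains were higher in the metastatic than in the localized library (Col18a1 and Col27a1), and the median for metastatic against invasive was -1.27; with a filter of a mean of at least 5 FPKM that median was -1.01 and 1 chain was higher in the invasive than in the localized library. Without a filter the medians over all 44 chains were -0.054 (invasive) and -0.15 (metastatic) against the localized library, because the 26 chains then added have values near 0. At 1.5-fold, 4 chains were higher in the invasive and 2 in the metastatic than in the localized library. The counts under these alternatives have no all-gene share beside them, so they are a description only. The counts of lower chains were between 11 and 13 in both comparisons with the localized library and between 7 and 11 for metastatic against invasive. In the latter, Col15a1 was not counted without subtracting 0.1 (-0.98). The share of chains did change with the filter. In both comparisons with the localized library, 11 of 15 chains were lower at a mean of at least 5 FPKM and 13 of 44 without a filter. Scaling by median ratios, with factors of 1.00 to 1.003, changed no count. The unreplicated design limits every value. Counting error limits the metastatic values of Col4a6, Col1a2 and Col6a3 (about 2, 19 and 20 fragments) and those chains under the filter that had few fragments.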
